A study of Mus musculus with 16 samples.

Results

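The myogenic regulators Myod1, Myog, Myf5, Myf6 and Mef2c were followed together with Msc and Gsc in the pituitary gland of mouse embryos with and without the Insm1 -/- genotype. All array probes annotated to these 7 symbols were taken, which gave 10 of the 25697 probes and 7 of the 16593 named genes on the array. The genes were picked with their levels in these arrays already known, so mutant and control values are given below as a description, with no test.

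The 6 mutants were labelled Insm1 -/- and the 10 controls Insm1 +/-, so that every control also carried 1 mutant allele. All samples were pituitary gland at embryonic day 17.5 on the strain background labelled C57/BL6;129Ola mixed. Total RNA was extracted with Trizol and RNeasy columns, and biotinylated cRNA was hybridised to Illumina bead arrays, 1 array per sample. The labels do not say whether a sample was 1 gland or a pool, or whether samples shared a litter, so the p-values below measure only how these samples spread, which may be technical. Insm1 encodes a zinc finger protein that regulates transcription while endocrine cells and neurons form, and the study asked which transcripts depend on it in the gland.

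Myod1, Myf5, Myog and Myf6 (also called Mrf4) encode basic helix-loop-helix (bHLH) transcription factors that turn on the skeletal muscle programme by binding E-boxes, short DNA motifs, as dimers with E proteins. Myf5, Myod1 and Myf6 commit cells to the muscle lineage, Myog drives their differentiation into fibres, and Mef2c, a MADS-box factor that is not restricted to muscle, acts with them on muscle promoters. Msc (musculin, or MyoR) is a bHLH repressor that marks the precursors of jaw muscles, and Gsc (goosecoid) is a homeobox factor of the gastrula organiser and of facial mesenchyme. Skeletal muscle is not among the usual cell types of the pituitary gland.

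Start-site sequences are shown for 3 of the genes, because E-boxes are the motif that the bHLH factors among them bind and because these genes differed in how they were measured: Gsc was above background on every array, Myog mainly in mutants, and Myf5 on none. The sequences are RefSeq's, build GRCm38.p6, each running 5′ to 3′ on the gene's own strand from 250 bases before to 50 bases after the annotated start, in lower case with E-boxes (CANNTG, which reads the same on both strands) in capitals. The windows are chr1:134289754-134290053 on the plus strand for Myog, chr12:104473187-104473486 on the minus strand for Gsc and chr10:107486085-107486384 on the minus strand for Myf5.
Myog: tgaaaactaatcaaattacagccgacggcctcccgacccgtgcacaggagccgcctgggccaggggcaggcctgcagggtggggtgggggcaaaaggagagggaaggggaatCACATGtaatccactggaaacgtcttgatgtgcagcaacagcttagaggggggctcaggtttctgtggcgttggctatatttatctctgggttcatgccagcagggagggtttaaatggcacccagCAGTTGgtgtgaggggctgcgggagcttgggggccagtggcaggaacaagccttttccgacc
Gsc: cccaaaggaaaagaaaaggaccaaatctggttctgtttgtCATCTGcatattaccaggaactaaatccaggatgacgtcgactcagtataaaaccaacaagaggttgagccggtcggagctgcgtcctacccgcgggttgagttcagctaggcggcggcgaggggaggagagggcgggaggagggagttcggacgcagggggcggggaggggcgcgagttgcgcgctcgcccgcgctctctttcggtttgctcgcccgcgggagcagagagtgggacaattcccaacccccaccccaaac
Myf5: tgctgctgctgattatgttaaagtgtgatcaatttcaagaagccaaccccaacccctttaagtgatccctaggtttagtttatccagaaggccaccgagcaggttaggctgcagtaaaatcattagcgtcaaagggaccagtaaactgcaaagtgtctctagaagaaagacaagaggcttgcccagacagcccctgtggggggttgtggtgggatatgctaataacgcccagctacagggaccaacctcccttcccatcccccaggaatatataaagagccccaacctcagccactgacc
The Myog window held 2 E-boxes, CACATG starting at position -138 and CAGTTG at -12 from the start site. Gsc had 1, CATCTG, at -210, and the Myf5 window had 0. Of 32851 RefSeq windows of the same 300 bases, 72.3% held at least 1 E-box and 39.6% at least 2, so these counts are common. The table held windows for 4 of the 7 genes, the fourth being Mef2c, whose 3 windows held 2, 0 and 1 E-boxes.

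The arrays were alike in brightness and in the number of probes above background, and 1 control stood apart. Median raw intensity was 96.5 to 132 in mutants and 102 to 122 in controls. Between 12928 and 13671 probes in mutants, and between 12892 and 14156 in controls, had a detection p-value under 0.01, the limit for above background used below; this p-value ranks a probe among the negative control beads of its array. A probe entered the fits if it passed that limit on at least 6 of the 16 arrays, which left 13813 probes and 9682 named genes. Levels are log2 intensities after background correction and quantile normalisation unless a raw intensity is named, and a level is compared only within a probe. The Insm1 probe read 11.78 ± 0.23 in mutants and 11.42 ± 0.18 in controls (SD, n = 6 and 10), and since its place relative to the altered part of the gene is not given in the files, it does not check the labels.

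Control 10 lay between the groups in many genes, and its RNA gave signal for both the X-inactivation transcript Xist (10.40) and the Y-linked Eif2s3y (11.05). Of the other 15 arrays, 7 had Xist alone above background and 8 had Eif2s3y alone. Control 10 is therefore shown separately throughout, and values are given with and without it.

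Of the 7 genes, 5 had a probe that entered the fits, and Myf5 and Myf6 had none. Myod1 entered through the mutant arrays alone, and Myog through the mutant arrays and control 10, so both had to read higher in mutants to be kept. In 3 of these 5 genes, Myod1, Msc and Gsc, every mutant was above every control, and with control 10 set aside this held for Myog too. Over all 9682 genes, 3.94% had every mutant above every control and 5.38% had every mutant above the 9 other controls. None of the 5 had every mutant below every control, which 5.26% of all genes had, or below the 9 other controls, which 6.77% had; since the genes were picked on this contrast, nothing is read from the comparison. Ranked by the difference, mutant minus control, over all genes, Msc was at place 5, Gsc at 8 and Mef2c at 1749; Myod1 and Myog, whose controls were mostly not above background, are not ranked.

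**Figure D1:**
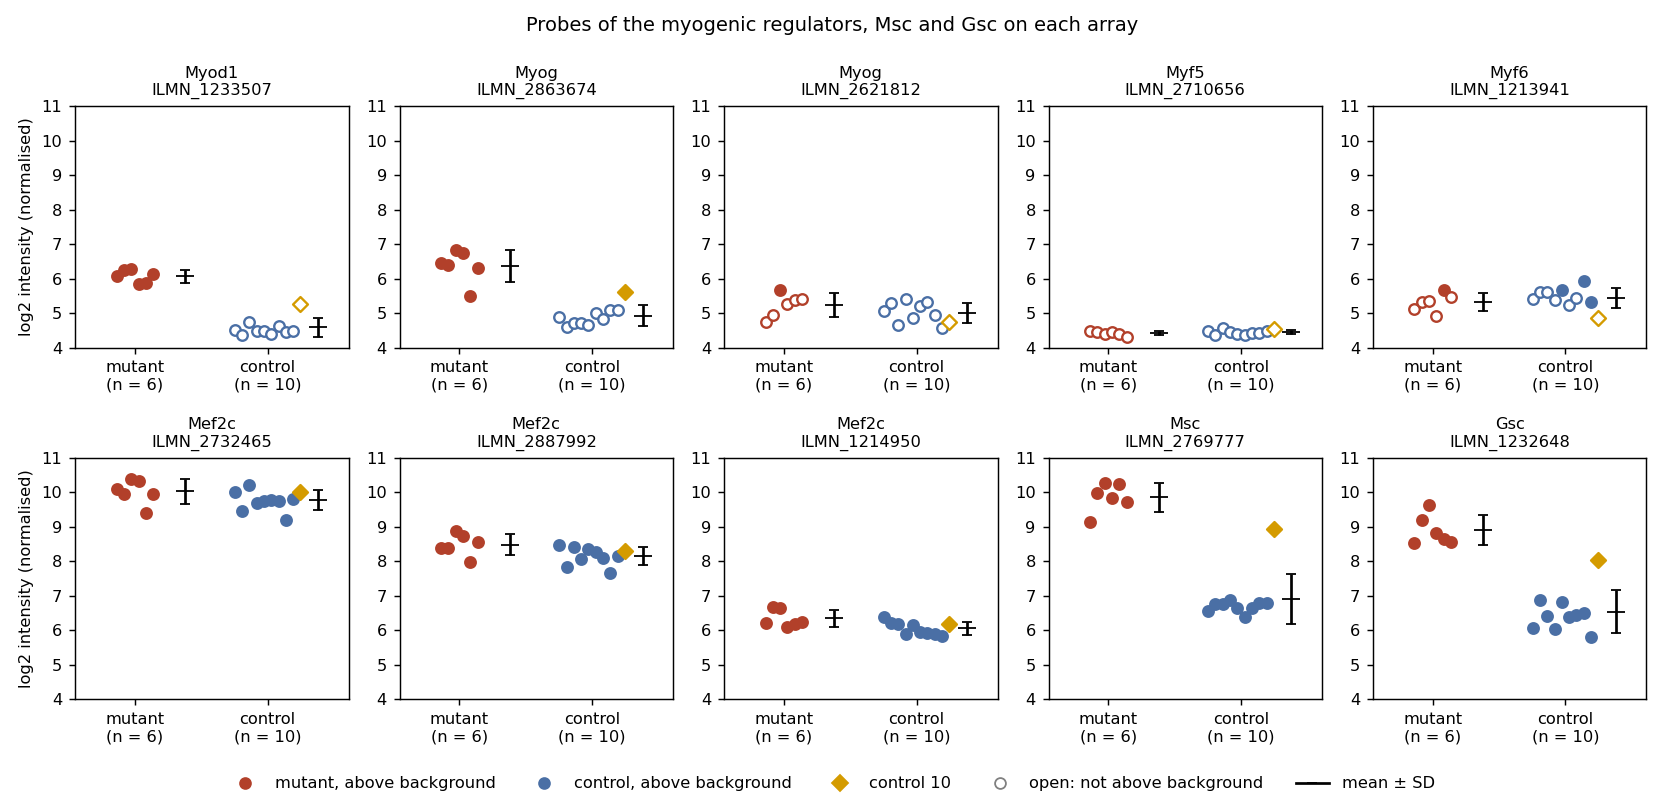
Normalised log2 intensity of each of the 10 probes on each array, with mutants to the left of controls in every panel, filled symbols for detection p-values under 0.01, control 10 as a diamond, and bars for mean ± SD. Msc and Gsc are far higher in all 6 mutants than in 9 controls with control 10 between, Myod1 is above background in mutants alone, and the Myf5, Myf6 and Mef2c probes overlap between the groups.

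Myod1, the determination factor that gives its name to the family, was above background on all 6 mutant arrays and on 0 of 10 control arrays. Its raw intensity (ILMN_1233507) was 110, 120 and 154 (lowest, median and highest) in mutants, against 58.6, 72.1 and 83.1 in the 9 controls other than control 10, which read 98.0. Every mutant was thus above every control, and control 10 was the highest control, with a detection p-value of 0.015 that just missed the limit. Mutant levels were 6.07, 6.25, 6.28, 5.83, 5.87 and 6.12 in mutants 1 to 6, a mean of 6.07 ± 0.19 (SD, n = 6), against 4.58 ± 0.27 in controls (SD, n = 10), a difference of 1.49 (SE 0.12) that was 0.80 with a background offset of 50. Because no control array rose above background, the fold has only a lower bound: against the lowest signal of a detected probe on each control array, mutants were at least 1.47-fold higher.

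Myog, which encodes myogenin, followed with more spread among the mutants. The probe ILMN_2863674 read raw intensities of 106, 141 and 167 in mutants, against 71.3, 86.6 and 100.3 in the 9 controls, and 109 in control 10. It was above background on 6 of 6 mutant arrays and on 1 of 10 control arrays, which was control 10 (detection p-value 0.00251). The mean level was 6.36 ± 0.48 in mutants and 4.92 ± 0.30 in controls (SD, n = 6 and 10), a difference of 1.44 (SE 0.18). With a background offset of 50 it was 0.86 and with no background correction 0.73, since the controls were near background. Mutant 5, at 5.48, was below control 10, at 5.61, while the other mutants, from 6.31 to 6.82, were above every control. Against the 9 controls without signal the bound is at least 1.78-fold higher in mutants.

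A second Myog probe, ILMN_2621812, did not separate the groups. Its raw intensity was 77.3, 93.7 and 117 in mutants and from 74.0 to 106 in controls, and it was above background on 1 mutant array and on 0 control arrays. The difference was 0.23 (SE 0.15), so the higher Myog reading in mutants rests on ILMN_2863674 alone.

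The remaining determination factors gave no such pattern. Myf5, usually the earliest of the family to appear in the embryo, was above background on 0 of 16 arrays, with raw intensities of 60.6 to 67.4 in mutants and 59.7 to 74.2 in controls. Myf6, which marks maturing fibres as well as early precursors, was above background on 1 mutant array and 3 control arrays. Its raw intensity was 83.2, 89.4 and 120 in mutants, against 97.4, 101 and 130 in the 9 controls and 86.3 in control 10, and the groups overlapped (difference -0.13, SE 0.13). A difference in either gene was not detectable at this background.

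Mef2c was well above background on every array and its groups overlapped on all 3 probes. The brightest, ILMN_2732465, read raw intensities of 791, 1128 and 1286 in mutants, against 725, 992 and 1091 in the 9 controls and 1074 in control 10. The difference was 0.26 (SE 0.15), or 1.19-fold, and 2 mutants were above the highest control. The probes ILMN_2887992 and ILMN_1214950 gave 0.32 (SE 0.14) and 0.28 (SE 0.11), with 3 and 2 mutants above the highest control. On each of the 3 probes at least 3 of the 6 mutants were inside the range of the controls.

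Msc had the largest difference of the 7 genes. Its probe (ILMN_2769777) read raw intensities of 616, 977 and 1390 in mutants, against 151, 162 and 184 in the 9 controls and 550 in control 10. Mutant levels were 9.12, 9.96, 10.26, 9.84, 10.23 and 9.71 in mutants 1 to 6, and the 9 controls lay between 6.37 and 6.87. All 16 arrays were above background, so the signal in controls was low but measured. The mean was 9.86 ± 0.42 in mutants and 6.91 ± 0.72 in controls (SD, n = 6 and 10), a difference of 2.95 (SE 0.29) or 7.70-fold. With control 10 left out the controls averaged 6.69 ± 0.15 and the fold was 9.00, so that 1 array made most of the spread among controls.

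Gsc gave the second largest difference and was likewise above background on every array. Its probe (ILMN_1232648) read raw intensities of 426, 514 and 671 in mutants, against 116, 158 and 174 in the 9 controls and 320 in control 10. Levels were 8.53, 9.19, 9.62, 8.81, 8.64 and 8.55 in mutants 1 to 6, and every mutant was above every control. The mean was 8.89 ± 0.43 in mutants and 6.53 ± 0.62 in controls (SD, n = 6 and 10), a difference of 2.36 (SE 0.26) or 5.13-fold, and 5.75-fold against the 9 controls alone. In bulk tissue such as this, fewer cells of a type and less RNA per cell cannot be told apart, and neither can more cells and more RNA per cell.

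Within the mutants the genes did not share 1 order. Mutant 3 had the highest level of Myod1, Myog, Msc and Gsc. The lowest was mutant 4 for Myod1, mutant 5 for Myog, and mutant 1 for Msc and Gsc. Over all 16 arrays the levels of Myod1, Myog, Msc and Gsc correlated with Pearson's r of 0.89 to 0.97 between pairs, which the gap between the groups sets. After the group means were subtracted, over the 15 arrays without control 10, r between these pairs ran from -0.21 (Myog and Msc) to 0.35 (Msc and Gsc). Mef2c then had r of 0.55 with Myog and 0.49 with Myod1; the points share slide and array brightness.

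The arrays lay on 2 slides, with 4 mutants and 4 controls on slide 1, and 2 mutants and 6 controls, control 10 among them, on slide 2. Msc differed by 3.06 on slide 1 and by 2.95 on slide 2 (3.33 there without control 10), and Myod1 by 1.58 and 1.38 (1.51). Gsc differed by 2.70 on slide 1 and by 1.93 on slide 2 (2.21). Myog varied most, with 1.87 on slide 1 and 0.85 on slide 2 (0.96), where mutant 5 was 1 of only 2 mutants. Mef2c differed by 0.35 on slide 1 and by -0.04 on slide 2 (0.02) on ILMN_2732465, while ILMN_2887992 (0.39 and 0.13) and ILMN_1214950 (0.24 and 0.23) were above 0 on both slides. Myf6 differed by -0.32 on slide 1 and by 0.16 on slide 2 (0.06), so its direction was not shared by the slides. The slide itself, which played no part in choosing the genes, was tested over 15 arrays with genotype in the model. None of the 7 kept probes passed this test of slide 2 minus slide 1 (limma adjusted p from 0.207 for Mef2c ILMN_2732465 to 0.989 for Msc), while 8.31% of all genes did.

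Control 10 was above each of the 9 other controls in Myod1, Myog, Msc and Gsc, and below every mutant in Myod1, Msc and Gsc. Over all 9682 genes 2.07% had control 10 in that place between the groups. On the linear scale it stood 35.3% of the way from the mean of the 9 controls to the mean of the mutants in Myod1, 35.1% in Myog, 45.1% in Msc and 42.7% in Gsc. These shares are much alike although the differences run from 1.52 for Myog to 3.17 for Msc against the 9 controls. Of all genes called without control 10 and at least 2-fold higher in mutants, the median share over 115 genes was 42.7% (quartiles 30.7% and 49.95%), and all 115 shares were above 0. Among those at least 2-fold lower in mutants the median over 324 genes was 57.1% (quartiles 47.8% and 68.2%), with 323 above 0. The shares of Myod1, Myog, Msc and Gsc lay between these quartiles of the genes higher in mutants, though for Myod1 and Myog the 9 controls were not above background. These genes are themselves among the 115, and the median there is the share of Gsc itself. Mef2c, whose groups differed little, had a share of 83.0%.

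**Figure D2:**
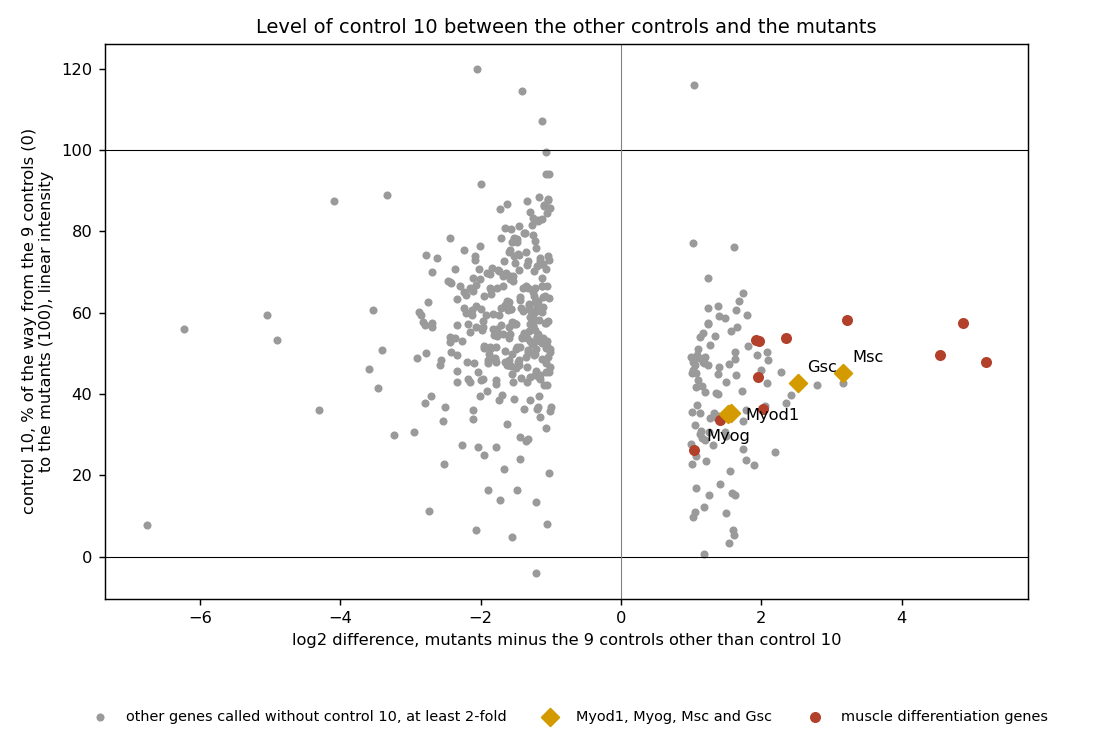
For each gene called without control 10 and at least 2-fold different, the level of control 10 is placed between the mean of the 9 other controls (0%) and that of the mutants (100%) on the linear scale, against the log2 difference, mutants minus those 9 controls. Myod1, Myog, Msc and Gsc sit at 35.1% to 45.1%, among the muscle differentiation genes and the other genes that were higher in mutants.

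Other genes of the muscle programme were counted with limma's test (adjusted p under 0.05 over all kept probes). Their lists were chosen with earlier results of these data known. The counts and p-values of listed genes are therefore a description and give no independent support. Over all 9682 genes this test called 29.9%, with 15.9% higher and 14.0% lower in mutants, and the median difference was 0.03; without control 10 it called 30.4%. Contractile and signalling genes of differentiating muscle had the most calls of the 5 lists: of 36 on the array 22 were tested, 15 rose and 3 fell, with a median difference of 0.87. Of the 15 that rose, 5 (Sln, Tnnc2, Actc1, Chrna1 and Myh8) were above background on at most 3 of 10 control arrays and were kept through the mutants, so they had to read higher in mutants to be tested. Of the 3 that fell, Actn3 was kept through the controls in the same way. The other 10 rose among 17 tested, with a median of 0.67, and with detection required on all 16 arrays 13 genes were tested, of which 8 rose and 2 fell. On slide 1 the counts were 15 and 3, on slide 2, with 2 mutants, 8 and 1, and without control 10 they were 15 and 3. The list holds many genes that are usually silent outside muscle, and 12 of its genes were above background on no array.

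The largest of these rises were in thin and thick filament genes and in Sln. Actc1, the actin of heart and embryonic skeletal muscle, averaged 10.18 ± 0.48 in mutants against 4.98 ± 0.26 in the 9 controls and 9.23 in control 10, a difference of 4.78 (SE 0.52). Only 2 of 10 control arrays were above background for Actc1, which was kept through the mutants, so no p-value is given. Myl1, a fast myosin light chain, averaged 13.83 ± 0.21 in mutants, against 8.96 ± 0.19 in the 9 controls and 13.08 in control 10 (difference 4.46, limma adjusted p = 1.85e-06). Sln, which encodes the calcium pump regulator sarcolipin, averaged 9.23 ± 0.32 in mutants, against 8.31 in control 10, the only control array above background. Its difference of 4.19 is thus taken largely against background, and mutants were at least 13.0-fold higher than the 9 other controls. Sln too was kept through the mutants and is given no p-value. In these 3 genes control 10 was closer to the mutants than to the other controls on the log2 scale, and in Myl1, measured on every array, it stood 57.5% of the way on the linear scale.

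Some genes of the acetylcholine receptor of the neuromuscular junction and of the troponins rose as well, while the receptor gene Chrnd was above background on no array and the troponin genes Tnnt3 and Tnni1 were on too few to be tested. Chrng, the receptor's fetal gamma subunit and a known target of the myogenic factors, rose by 1.91 (SE 0.21) with a limma adjusted p of 2.21e-06. The beta subunit gene Chrnb1 rose by 0.75 (SE 0.08, limma adjusted p = 6.64e-07), and Tnnt1, slow skeletal troponin T, by 1.84 (SE 0.18, limma adjusted p = 4.21e-07). The perinatal myosin gene Myh8 read higher by 2.96, with 3 of 10 control arrays above background. It was kept through the mutants, so no p-value is given. The genes that fell were Myom1, an M-band protein (-0.97, limma adjusted p = 2.24e-05), Atp2a1, the fast-fibre calcium pump (-0.64, limma adjusted p = 0.000258), and Actn3, a fast-fibre actinin (-0.68). Actn3 was above background on 2 mutant and 10 control arrays. It was kept through the controls, so no p-value is given for this probe. A second probe did not pass for Myom1 (-0.38, limma adjusted p = 0.134) or Actn3 (-0.24, limma adjusted p = 0.207). Some genes of mature fibres, Ckm, Casq1, Cav3 and Myh1, and Mymk, which fuses myoblasts, were above background on no array. Others were measured but did not pass. Mybpc1, Ryr1 and Actn2 were above background on every array, and Ttn on 5 mutant and 9 control arrays (limma adjusted p from 0.291 for Mybpc1 to 0.553 for Actn2).

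Of the 15 genes of this list that rose, 8 had every mutant above every control, against 3.94% of all 9682 genes. Control 10 was above the 9 other controls and below every mutant in 7, against 2.07% of all genes. The 15 were picked as higher in mutants, so nothing is read from these counts.

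**Figure D3:**
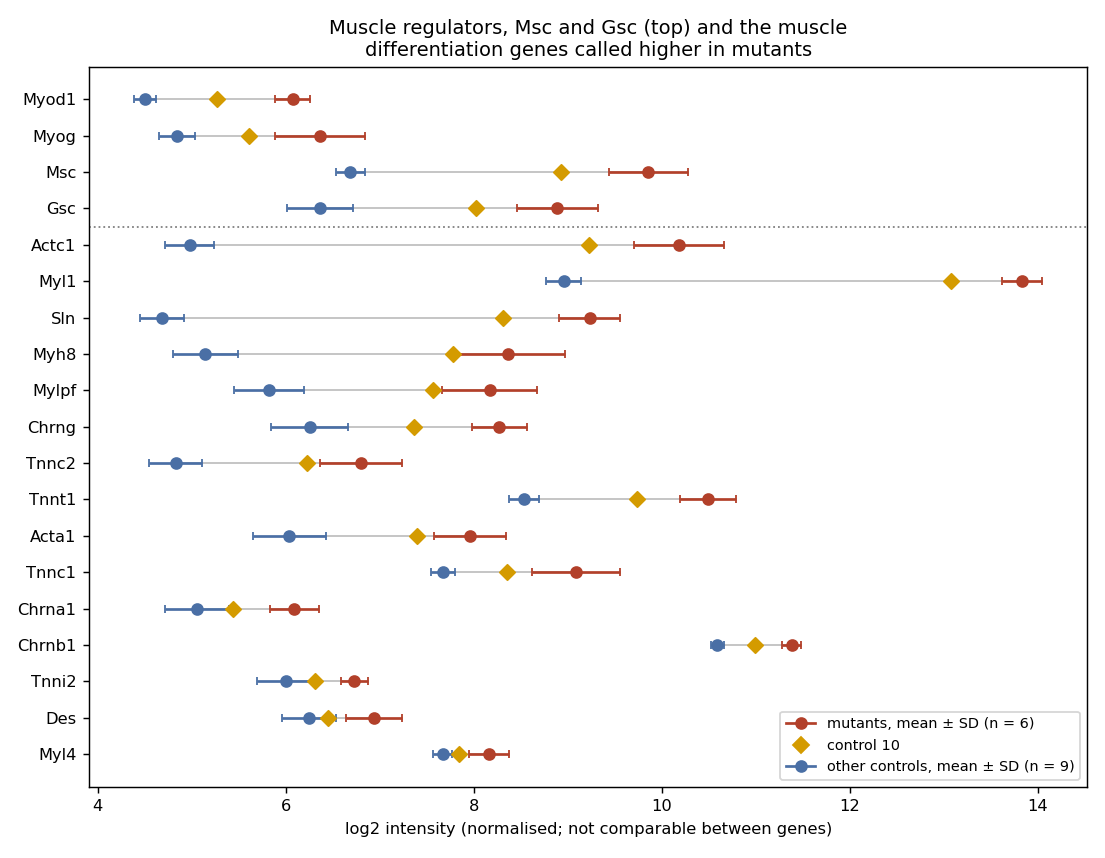
Normalised log2 intensity of Myod1, Myog, Msc and Gsc (top) and of the 15 muscle differentiation genes that rose, with mean ± SD of the 6 mutants and of the 9 other controls and control 10 as a diamond. Control 10 lies between the means in every gene shown, nearest the mutants in Myl1, Actc1, Myh8 and Sln as a share of the gap; levels are not comparable between genes.

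Genes upstream of the myogenic factors gave fewer calls, and several were not above background. Of 17 on the array 11 were tested, 4 rose and 1 fell, with a median difference of 0.36 (0.43 on slide 1 and 0.18 on slide 2). Eya4 (0.73, SE 0.11, limma adjusted p = 9.99e-05), Six2 (0.83, SE 0.14, limma adjusted p = 0.000283), Six4 (0.48, limma adjusted p = 0.00499) and Eya1 (0.73, limma adjusted p = 0.0234) rose. They encode sine oculis homeobox factors and their Eya coactivators, which act upstream of the myogenic factors in muscle precursors. Eya1 missed the threshold without mutant 1, 3 or 4. Megf10, a receptor of satellite cells that glia also express, fell by 0.69 (limma adjusted p = 0.000299). Pax3, Pax7, Lbx1, Met and Fgfr4, the classical markers of trunk and limb muscle precursors and satellite cells, were above background on no array, and Tcf21, the usual partner of Msc in jaw muscle precursors, did not pass (-0.36, limma adjusted p = 0.0541).

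Among the bHLH partners and inhibitors of the myogenic factors, 14 of 15 on the array were tested, 4 rose and 1 fell, and the median difference was 0.16. Hey1 (1.14, SE 0.14, limma adjusted p = 5.52e-06), Hes1 (0.55, limma adjusted p = 0.000984) and Heyl (0.39, limma adjusted p = 0.00462), repressors that Notch signalling induces, rose, as did Tcf4, an E protein that can dimerise with the myogenic factors (0.42, limma adjusted p = 0.000593). Bhlhe40, a repressor tied to the circadian clock and hypoxia, fell by 0.56 (limma adjusted p = 0.00133). The Id genes, whose products bind E proteins and block DNA binding, gave differences from -0.08 for Id2 to 0.19 for Id1, and neither these 4 genes nor Twist1 and Twist2 passed the test. On slide 2 alone 1 of this list was called.

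Mef2 relatives, Srf and their cofactors gave 2 small rises. Of 14 on the array 9 were tested, 2 rose and 0 fell, with a median difference of 0.13. Maml1, a Notch and Mef2 coactivator, rose by 0.28 (limma adjusted p = 0.0173), and Srf, the serum response factor of actin promoters, by 0.23 (limma adjusted p = 0.0282). Srf missed the threshold without mutant 2, 3 or 5, and on either slide alone, or under median scaling, none of this list was called. Mef2a (0.10, limma adjusted p = 0.706) and Mef2b (-0.19, limma adjusted p = 0.384) did not pass.

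Of the genes of head mesenchyme and of the organiser, where Gsc is best known, 14 were above background on no array. Of 21 on the array 6 were tested, 1 rose and 2 fell, and the median difference was 0.05. Osr2, a zinc finger factor of palate mesenchyme, rose by 2.10 (SE 0.16, limma adjusted p = 1.54e-08) and averaged 8.23 ± 0.24 in mutants and 6.12 ± 0.36 in controls (SD, n = 6 and 10). Chrd, the organiser's BMP antagonist chordin, fell by 0.78 (limma adjusted p = 1.39e-05), and Prrx1 fell by 0.43 (limma adjusted p = 0.0221). Prrx1 missed the threshold without mutant 1 or 3, and 1 of its other 2 probes did not pass (0.10, limma adjusted p = 0.562). The facial mesenchyme genes Dlx1, Dlx2, Dlx5, Hand1, Hand2, Msx2, Alx1, Alx4 and Barx1, and Foxa2, Lhx1 and Nodal, which accompany Gsc in the organiser, were above background on no array. Msx1 and Otx2 were above background on every array, and Osr1 on 3 mutant and 4 control arrays. None of them passed (differences of 0.22, -0.03 and 0.13, limma adjusted p = 0.0862, 0.874 and 0.657).

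**Figure D4:**
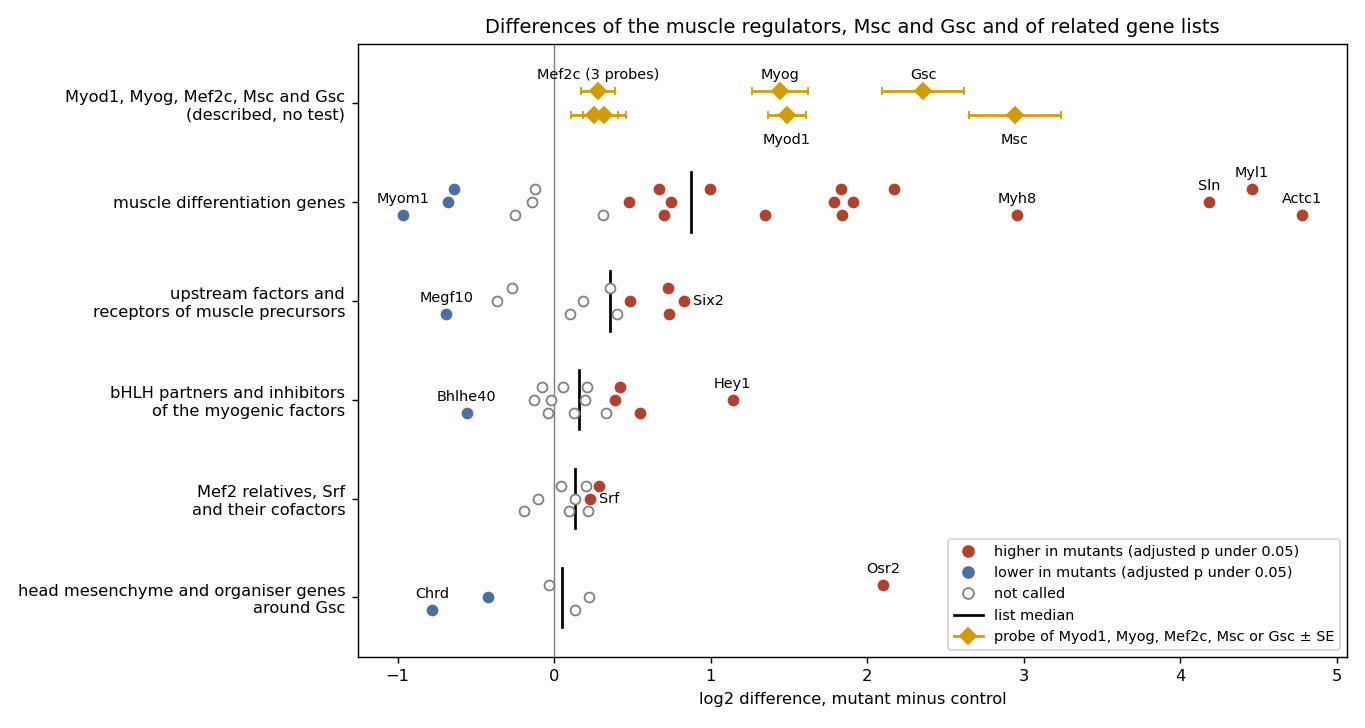
Log2 differences, mutant minus control, of Myod1, Myog, Mef2c (3 probes), Msc and Gsc with their SE, and of the tested genes of 5 lists, with filled points for adjusted p under 0.05 and a black line at each list's median. Msc and Gsc exceed all genes of the upstream, bHLH partner, Mef2 and head mesenchyme lists, while Actc1, Myl1, Sln and Myh8 (2.96 against 2.95 for Msc) of the differentiation list lie above both; the medians run from 0.05 to 0.87.

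Markers of other cell types were measured beside these genes. The summed level of a list is the log2 of the summed linear intensities of its tested genes, so its brightest genes weigh most. For the muscle differentiation list it was 14.37 to 14.88 in mutants, 12.54 to 12.90 in the 9 controls and 14.00 in control 10. This sum includes the genes kept through the mutants, and Myl1 alone averaged 13.83 in mutants and 8.96 in the 9 controls. Of the heart markers 1 of 8 was tested, Nppa, which was above background on 0 mutant and 9 control arrays. It was kept through the controls and had to read lower in mutants to be tested, so no p-value is given. Its level was at least 1.74-fold lower in mutants. Nppb, Nkx2-5, Gata4, Tbx5 and Myl7 were above background on no array. Of smooth muscle and pericyte markers 5 of 8 were tested and 2 rose, Acta2 (1.51, limma adjusted p = 0.00382) and Des, which skeletal muscle shares (0.67, limma adjusted p = 0.00127). Smtn, a smooth muscle marker above background on every array, did not pass (0.16, limma adjusted p = 0.258), and neither did Pdgfrb and Rgs5. The smooth muscle markers Myh11, Tagln and Cnn1 were above background on no array. The summed level of the tested markers was 11.20 to 11.82 in mutants, 10.25 to 11.55 in the 9 controls and 11.21 in control 10.

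Tendon and cartilage markers moved in part. The tendon factor Scx rose by 1.13 (limma adjusted p = 9.18e-07) and Mkx fell by 0.47 (limma adjusted p = 0.00236), among 6 tested of 10 tendon and connective tissue markers, whose summed level was 13.76 to 14.29 in mutants, 13.62 to 14.18 in the 9 controls and 14.22 in control 10. The collagen gene Col2a1 of cartilage rose by 0.81 (limma adjusted p = 0.00108), 1 of 3 tested of 11 cartilage and bone markers, whose summed level was 9.63 to 10.79 in mutants, 9.02 to 9.84 in the 9 controls and 10.04 in control 10. Of 6 macrophage markers 4 rose, with summed levels of 10.79 to 10.97 in mutants, 10.34 to 10.74 in the 9 controls and 10.77 in control 10. None of the 6 endothelial markers and none of the 3 erythroid markers tested passed. The part of these cell types in the levels of Myod1, Myog, Msc and Gsc was not tested.

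Hormone genes of the labelled tissue were lower in mutants, and some were not above background there. Of 11 pituitary markers on the array 10 were tested, 6 fell, all of them hormone genes, and 2 rose, the transcription factors Six3 and Pitx1. Lhx3 and Hesx1 did not pass. Gh, Tshb, Cga and Pomc were above background on every array, and Prl on 2 mutant and 10 control arrays. Lhb was above background on 0 mutant and 10 control arrays, so it had to read lower in mutants to be tested. Fshb, on 0 mutant and 5 control arrays, was not tested. The summed level of the tested markers was 13.10 to 13.93 in mutants, 16.41 to 16.70 in the 9 controls and 16.19 in control 10. The part of this loss of hormone transcripts in the relative levels of other genes was not tested.

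The genes with the most similar levels were sought for each of the 5 genes by Pearson's r over the 16 arrays. Msc was closest to Myl1 (r = 0.99), Pkp1 (0.99) and Sln (0.98), and Gsc to Parva (0.97), Mustn1 (0.97) and Sln (0.97). Myod1 was closest to Parva (0.99), Apobr (0.98) and Kcnk13 (0.98), Myog to Nxn (0.98), Marchf1 (0.97) and Tnnc2 (0.97), and Mef2c to Nkain3 (0.90), Tsc22d1 (0.89) and Scp2 (0.89). For Myod1, Myog, Msc and Gsc these values follow the gap between the groups and the place of control 10.

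Without control 10 and with group means subtracted, over 15 arrays, other genes came first. They were Zfp106 for Myod1 (r = 0.84), Car12 second to Nxn for Myog (0.84 and 0.87), Nkain3 and Tab2 for Mef2c (0.92 each), Abca7 for Msc (0.89) and Ralyl for Gsc (0.82). Nxn for Myog and Nkain3 for Mef2c were among the closest by both measures, and no gene of Myod1, Msc or Gsc was. These are descriptions of 16 samples that share slides and depth.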

How the data were processed

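Per the file headers, the deposited file holds for each of 25697 probes and 16 arrays an average bead intensity (AVG_Signal) with its detection p-value, neither background-corrected nor normalised as read from the values. The submitters' processing notes name GenomeStudio, with no version in the sources used here. The deposited series matrix holds the authors' processed intensity values, linear and partly below 0, with steps not stated in the labels; each column ranks probes as the raw file does (Spearman correlation 1), with medians near 37.1, so only its centring and direction are known. It served as an alternative.

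Intensities were background-corrected with limma's nec (offset 16), quantile-normalised and log2-transformed (R 4.3.3 with limma 3.58.1 and version 1.17.8 of the data.table package). Probes passing a detection limit of 0.01 on 6 or more arrays were fitted with genotype alone (lmFit, eBayes) and Benjamini-Hochberg adjusted over 13813 probes at 0.05. A gene is its kept probe with the highest mean. Probes were named through the platform annotation, where 23978 carried 1 symbol, 0 several and 1719 none. A bound ("at least") divides the brighter group's mean by a floor, which averages on each array of the dimmer group whichever is higher, the probe itself or the lowest detected probe.

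The share of control 10 is its linear intensity minus the mean of the 9 other controls, over the mutants' mean minus that mean. The 7 genes and all gene lists were chosen with earlier results of these data known. Text names follow a rule (up to 6 called genes of each list with the smallest adjusted p); Myh8, Tnnc2, Chrna1, Chrnd, Tnnt3, Tnni1, Myom1, Atp2a1, Actn3, genes on no array, Tcf21, the Id, Twist and Mef2 genes, Xist and Eif2s3y were chosen for naming with their values in view. The other genes named as not passing were likewise chosen with their values in view. The fit was checked on simulated data. Alternatives covered slide, background correction, normalisation, filter, replicate block and single arrays left out. Precision is limited by the number of arrays.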

Additional observations from a re-analysis of the deposited data

Results flagged for a closer look

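Among the 20 sets of values formed by the 10 probes in mutants and in controls, control 10 was the highest control by a wide gap in 4. Chance gives such a gap in about 1 of 20 sets, but control 10 was singled out with its values known and the 4 values share 1 array, so nothing is read from the number. It read 5.27 in Myod1, with the nearest control at 4.74, and 5.61 in Myog (ILMN_2863674), with the nearest at 5.10. In Msc it read 8.93 against 6.87 in the nearest control, and in Gsc 8.02 against 6.86. All 4 values come from the array that also gave both Xist and Eif2s3y signal. No other set of values was flagged. Mutant 5 was nevertheless well below the other mutants on 1 Myog probe and 1 Mef2c probe. It read 5.48 in Myog (ILMN_2863674), with the nearest mutant at 6.31, and 9.39 in Mef2c (ILMN_2732465), with the nearest at 9.95.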

How the results depend on the processing

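The differences of Mef2c, Msc and Gsc stayed above 0 under each alternative run, except Mef2c on slide 2 alone (-0.04). Those of Myod1 and Myog stayed above 0 in each run that kept these genes. With detection required on every array neither Myod1 nor Myog was kept, so that run gave no difference for them. Of all alternative values 442 stayed within the replicate spread or within 1.5 times the count. The small difference of Myf5 was 0.02 under median scaling, and that of Myf6 was 0.06 on slide 2 without control 10. On slide 1 alone 1757 genes were called, 813 of them higher, the Mef2 list had 0 calls and Myog differed by 1.87. On slide 2 alone 747 genes were called, 268 higher and 479 lower, the upstream list had 3 calls, the bHLH list 1, the Mef2 list 0, the differentiation list 9 and the head mesenchyme list 1, Myog differed by 0.85, and Myf6 turned to 0.16. Slide 2 without control 10, an alternative chosen after seeing the data, gave 1122 calls, 474 higher and 648 lower, with 3 in the upstream list, 0 in the Mef2 list, and 0.96 for Myog. Fewer arrays enter these fits.

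Background treatment set the size of the differences of the dim probes. With an offset of 50, Myod1 differed by 0.80 and Myog by 0.86; with no background correction the values were 0.78 and 0.73. In the deposited processed values Myog differed by 1.91. Median scaling left 0 calls in the Mef2 list. Asking for detection on all 16 arrays left 10 calls in the differentiation list, because fewer of its genes are then tested. By Spearman's rho over 16 arrays, 2 of the 15 most similar genes were the same as by Pearson's r.

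Leaving out single arrays gave 2461 to 2941 called genes, 1251 to 1573 higher and 1210 to 1385 lower, with 4 to 7 calls in the upstream list, 5 to 6 in the bHLH list, 1 to 3 in the Mef2 list, 18 to 19 in the differentiation list and 2 to 3 in the head mesenchyme list. The Mef2 list had 1 call without mutant 2 or 5 and 3 without mutant 6, and the upstream list 7 without control 8. Differences then ran from 1.45 to 1.56 for Myod1, 1.35 to 1.62 for Myog, -0.05 to -0.01 for Myf5, -0.21 to -0.06 for Myf6, 0.18 to 0.38 for Mef2c, 2.86 to 3.17 for Msc and 2.21 to 2.52 for Gsc.

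Groups share replicate numbers 1 to 6, but the labels give them no meaning. Deviations of same-numbered samples correlated from -0.06 to 0.44, with 5 of 6 pairs above 0.1, against -0.27 to 0.23 for other numbers on the same slide, and 5 of 6 mutants correlated best with their own number, a hint from the data only. With the replicate number as a block, over replicates 1 to 6, 2971 genes were called, and Msc differed by 3.19, Gsc by 2.46, Myod1 by 1.57 and Myog by 1.60. The causes of these shifts were not tested unless stated.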
